A study of Bos taurus with 18 samples.

Results

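The genes described here are the translation initiation and elongation factors of cow milk cells, taken as every gene whose symbol on the array begins with EIF or EEF. They were 51 of the 9155 genes that the platform annotation names singly, carried by 69 probe sets, and each gene was read at its brightest probe set by the mean of the 18 arrays. The rule reads symbols and no difference between groups. By role they were 6 genes of eIF1, eIF5 and eIF6, 11 of eIF2 with its exchange factor and kinases, 12 of eIF3, 11 of eIF4 and 11 of elongation. On all 18 arrays, 46 of the 51 lay above 2.55, the median of the whole table and the level taken here as background.

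Cells were spun from the milk of 18 dairy cows, 6 in each of 3 groups, and each cow's RNA was read on its own expression array, so the p-values measure the spread between cows. The cows came from dairy farms and veterinary clinics. The healthy ones showed no clinical disease and had milk with under 100000 somatic cells per ml. The labels place most of them 10 to 100 days after calving and give an age of 2 to 4 years. The mastitis cows had an inflamed udder and the endometritis cows an inflamed lining of the uterus. Both diseased groups were sampled 10 to 220 days after calving, with no age given, so stage of lactation and age can differ between the groups. Lactation number runs from 1 to 8 in the labels of every group, which cannot hold with an age of at most 4 years. No genotype or treatment separates the groups in the labels.

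Protein synthesis starts when eIF2, carrying GTP and the initiator methionine tRNA, joins the small ribosomal subunit together with eIF1, eIF1A, eIF5 and the many-subunit scaffold eIF3. The eIF4 proteins bind the mRNA cap, unwind the leader and bring the mRNA to that complex. Elongation then runs on eEF1A, which delivers aminoacyl-tRNA, on eEF1B, which recharges eEF1A with GTP, and on eEF2, which moves the ribosome along. Kinases that phosphorylate eIF2 or eEF2 slow initiation or elongation, and the binding protein 4E-BP1 holds back the cap-binding protein eIF4E. In milk these genes are read from a mixture of shed secretory epithelium and immune cells.

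All values are log2 values, so that a gap of 1 means a 2-fold change. Each difference is given with its standard error (SE) from limma and a p adjusted over all 24016 tested probe sets. A gene was called at an adjusted p under 0.05. The number of arrays, 6 in each group, limits the precision of every value. Levels of different genes come from different probe sets and are not set against each other. Close paralogs in the list, such as EIF1 and EIF1B, EIF4A1 and EIF4A2, or EEF1A1 and EEF1A2, can share signal on an array.

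The mastitis samples differed in their cell markers. Of 11 neutrophil markers 9 were called higher in mastitis than in healthy milk, and the mean log2 level of the list ran from 4.36 to 6.19 in healthy, 7.83 to 9.21 in mastitis and 3.90 to 6.35 in endometritis samples, with PGLYRP1 at background in all groups. Of 13 mammary secretory markers 12 were called lower, the list running from 11.35 to 12.76 in healthy, 5.84 to 8.99 in mastitis and 9.74 to 12.82 in endometritis samples. Of 8 epithelial markers 6 were called lower. Of 9 macrophage and 11 T cell markers 0 were called in that comparison by limma, with 1 macrophage and 0 T cell markers at an unadjusted p under 0.05. Of 6 NK and cytotoxic markers 2 were called higher, GNLY and NCR1, and the list ran from 2.65 to 3.47 in healthy, 2.62 to 4.59 in mastitis and 2.66 to 3.94 in endometritis samples. Of 4 B cell markers 1 was called higher, BLK, with the list between 2.66 and 3.24 in healthy and between 2.55 and 3.58 in mastitis samples. The erythroid markers stayed near background. The spike-in control dap also moved, from a mean of 7.41 ± 0.83 (SD, n = 6) in healthy to 6.03 ± 0.45 in mastitis samples, and an exact permutation test, two-sided like the others here, gave p = 0.00216, the lowest value open to 6 against 6 (0.0162 adjusted over 30 tests). For GAPDH, the 3′ control minus the 5′ control averaged 0.88 ± 0.40 in healthy and 0.39 ± 0.23 in mastitis samples (exact permutation p = 0.0195, adjusted 0.0584). The part of the cell mixture and of RNA quality in the results below was not tested. In such bulk samples, fewer cells of a type and less RNA per cell cannot be told apart.

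Between mastitis and healthy milk, 5 of the 51 factor genes were called higher and 15 lower, and 31 were not called. Over all 9155 genes, 11.3% were called higher and 15.8% lower. Among the 4969 genes above background on all arrays, as 46 of the members were, those shares were 17.1% and 23.1%. The median difference of the members was -0.25, beside -0.01 over all genes and -0.06 over the genes above background. The 5 genes that rose were EIF1, EIF6, EIF2AK2, EIF3D and EIF4G3. The 15 that fell were 5 of the elongation genes, 4 of the eIF3 genes, 4 of the eIF2 genes, EIF1AX and EIF4H. Scaling the arrays on their hybridisation controls moved the median of all genes from -0.01 to 0.25. The split of calls among members became 3 higher and 4 lower, beside 872 higher and 586 lower of all 9155 genes. The 4 lower were EEF1D, EEF1E1, EEF1G and EEF2K.

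**Figure D1:**
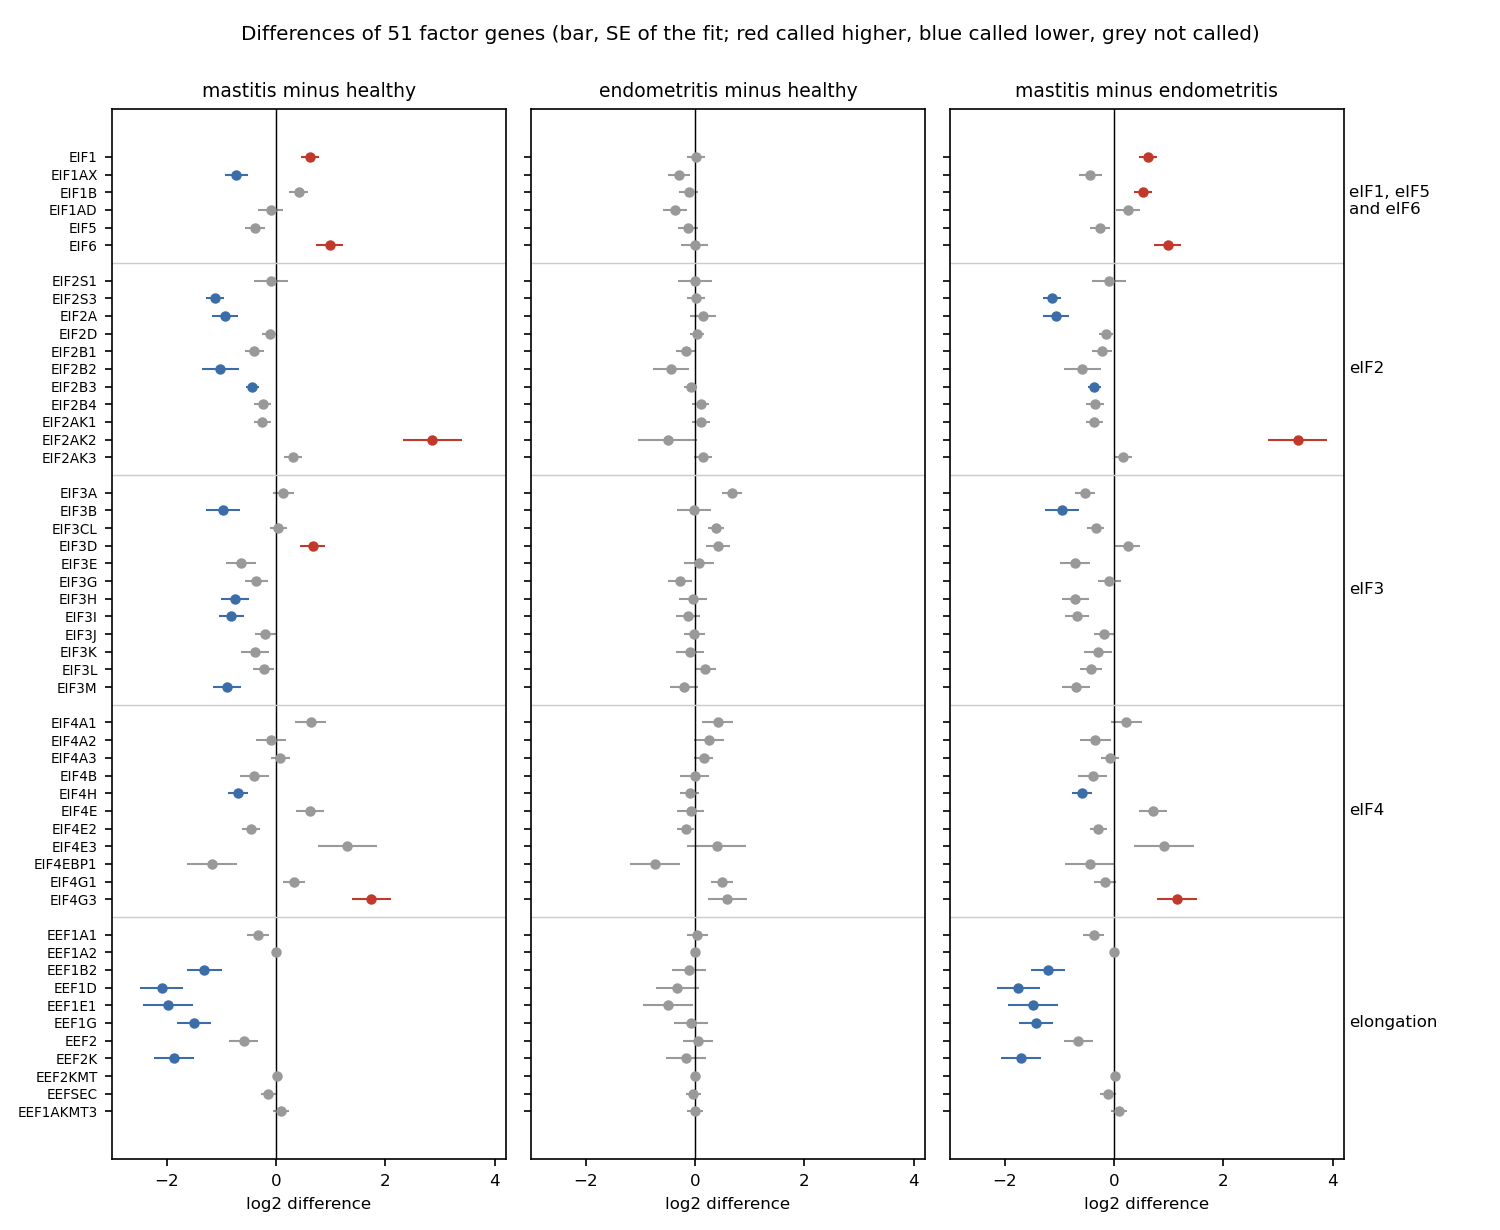
Log2 difference of each of the 51 factor genes in the 3 comparisons (horizontal axis), with genes grouped by role from top to bottom. Points are differences and bars are the SE of the limma fit, red for genes called higher, blue for genes called lower and grey for genes not called. In mastitis minus healthy 5 points are red and 15 blue, 5 of the blue ones among the elongation genes, while in endometritis minus healthy all points are grey.

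The fall was largest, by median, among the elongation genes. Besides elongation factors, this class holds a kinase, methyltransferase genes and a protein of the multi-synthetase complex. Of these 11 genes, 5 were called lower and 0 higher, with a median difference of -0.60 that stayed below 0 under each scaling tried; 1 call was left with a GAPDH quality covariate. The 3 subunits of eEF1B, the exchange complex that returns eEF1A to its GTP form, were all called lower.

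EEF1D, the eEF1B delta subunit, lay at 8.87 at lowest, 9.49 at the median and 10.13 at highest in healthy samples, at 6.49, 7.35 and 8.22 in mastitis samples, and at 8.17, 9.30 and 9.90 in endometritis samples. Every mastitis sample lay below every healthy one, while mastitis and endometritis samples overlapped narrowly. The difference between mastitis and healthy was -2.09 ± 0.39, a 4.25-fold fall (adjusted p = 0.00157). EEF1G, the gamma subunit, ran from 10.31 through a median of 10.81 to 11.25 in healthy, from 8.41 through 9.28 to 10.19 in mastitis, and from 10.25 through 10.76 to 10.99 in endometritis samples. Mastitis samples did not overlap with either other group. The fall from healthy was 1.51 ± 0.31 on the log2 scale, 2.84-fold (adjusted p = 0.00288). EEF1B2, the beta subunit that catalyses the nucleotide exchange, read 10.54, 10.69, 11.04, 11.60, 11.27 and 10.88 on healthy arrays 1 to 6, and 8.78, 8.91, 10.47, 9.08, 10.76 and 10.15 on mastitis arrays 1 to 6. Mastitis arrays 3, 5 and 6 came close to or into the healthy range and arrays 1, 2 and 4 lay well below it. The difference was -1.31 ± 0.31 (adjusted p = 0.00750), and the 6 endometritis arrays lay between 10.75 and 11.04.

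EEF1E1, a small relative of the eEF1B subunits that sits in the multi-synthetase complex, fell by 1.98 ± 0.46 on the log2 scale, 3.96-fold (adjusted p = 0.00607). Its values ran from 5.69 to 8.07 in healthy and from 3.71 to 5.71 in mastitis samples, which met only between 5.69 and 5.71, and from 5.38 to 7.43 in endometritis samples. EEF2K, the kinase that phosphorylates and restrains eEF2, had a healthy range of 5.66 to 6.78 with a median of 5.87 and a mastitis range of 2.79 to 4.99 with a median of 4.49. No mastitis sample reached the lowest healthy or endometritis sample, the endometritis range being 5.28 to 6.43. EEF2K fell 3.64-fold, a difference of -1.86 ± 0.37 (adjusted p = 0.00207). A dimmer probe set of the gene differed by -0.44 ± 0.23 and was not called (adjusted p = 0.219).

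The factors that these proteins serve did not pass at their brightest probe sets. EEF2, the translocase, ran from 9.41 through 10.16 to 10.73 in healthy and from 8.90 through 9.49 to 9.94 in mastitis samples. The groups overlapped, all 6 mastitis samples lay below the healthy mean, and the difference of -0.60 ± 0.27 was not called (adjusted p = 0.153). EEF1A1, the tRNA carrier and among the most abundant cell proteins, ran from 12.60 through 13.07 to 13.20 in healthy, from 12.09 through 12.67 to 13.19 in mastitis and from 12.90 through 12.96 to 13.19 in endometritis samples, with a difference of -0.33 ± 0.19 (adjusted p = 0.285). The muscle and neuron form EEF1A2 and the eEF2 methyltransferase gene EEF2KMT were at or near background throughout, so nothing can be read from them. EEFSEC, the selenocysteine elongation factor, differed by -0.14 and the methyltransferase gene EEF1AKMT3 by 0.09, neither called.

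EEF1A1 did not read alike at all its probe sets. Its other tested probe set averaged 9.07 in healthy, 6.46 in mastitis and 9.01 in endometritis samples, a difference of -2.61 ± 0.38 between mastitis and healthy that was called (adjusted p = 0.00026). The array also carries control probe sets along this gene, which were left out of the fit and of the choice of probe sets. The control at its 3′ end fell from 9.10 ± 0.54 (SD, n = 6) in healthy to 6.47 ± 0.90 in mastitis samples without overlap (exact permutation p = 0.00216, adjusted 0.0162 over 30 tests). The control at its 5′ end averaged 10.96 ± 0.89 in healthy and 10.69 ± 1.00 in mastitis samples, with overlap (exact permutation p = 0.593). The middle control lay at 3.57 ± 0.56 and 2.97 ± 0.29 in the same groups (exact permutation p = 0.0476, adjusted 0.110). The other tested probe set and the 3′ control read nearly alike on every array, at 8.31 and 8.43 on healthy array 1 and at 5.28 and 5.24 on mastitis array 1. Their falls therefore do not count as separate evidence. The mean was lower in mastitis at all 5 probe sets, while the size of the difference and the call depended on the probe set. What they match in the transcripts was not analysed here.

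**Figure D2:**
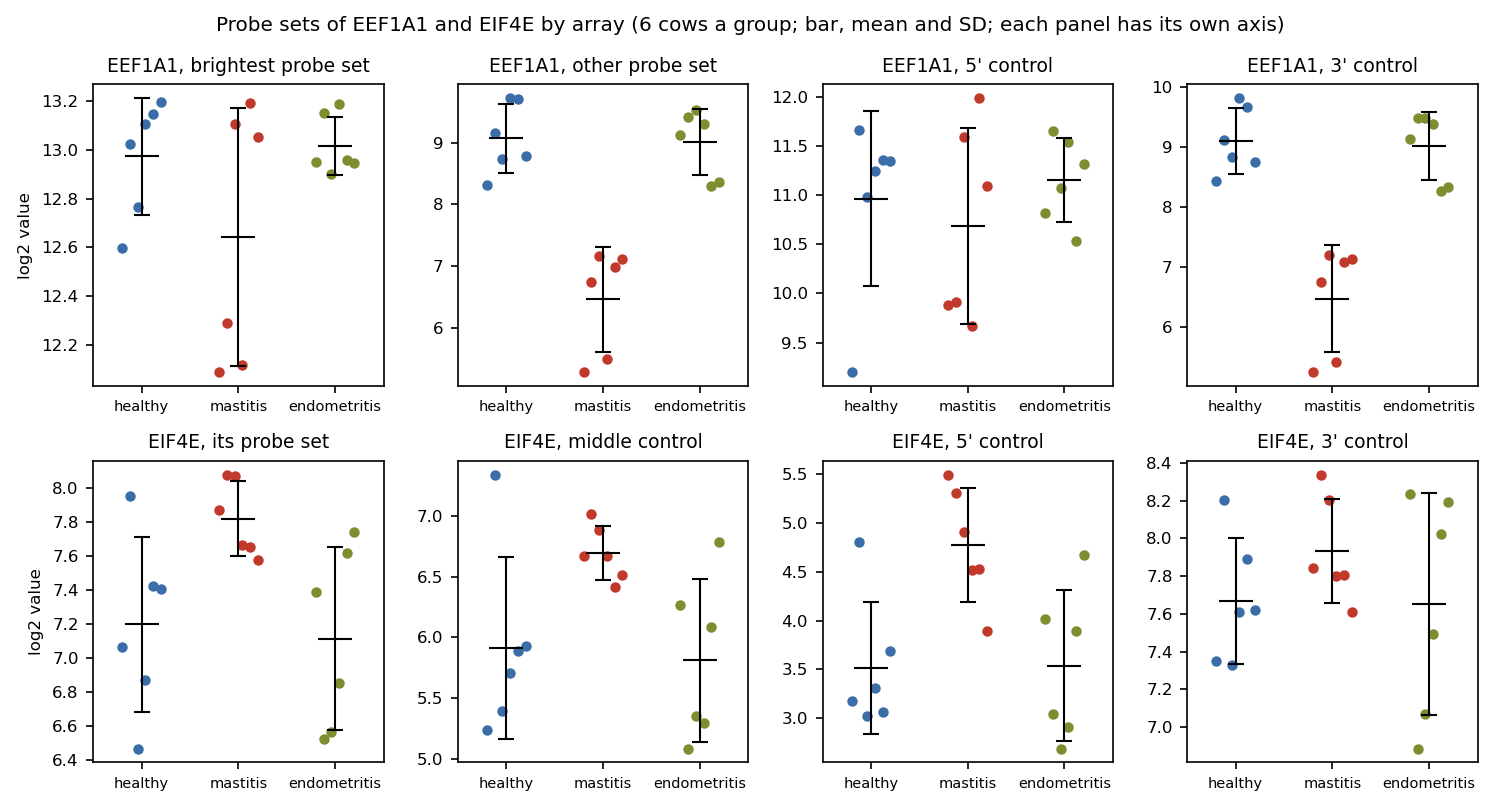
Log2 values by array of 4 probe sets of EEF1A1 (top) and 4 of EIF4E (bottom), 6 cows in each group, with points for arrays and bars for mean and SD, each panel on its own axis. The other probe set and the 3′ control of EEF1A1 are lower in every mastitis sample than in any healthy one, while its brightest probe set and 5′ control overlap between groups. The 5′ control of EIF4E averages 3.51 in healthy and 4.77 in mastitis samples.

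The mastitis samples fell into an order that recurred across elongation and eIF3 genes, a pattern picked out after the values were seen. Mastitis arrays 1, 2 and 4 were the 3 lowest of the 6 for 6 of the 11 elongation genes, 8 of the 12 eIF3 genes, 4 of the 11 eIF2 genes and 2 of the 11 eIF4 genes, and for 63 of 67 cytosolic ribosomal protein genes. The mean log2 level of the 3 eEF1B subunits was 7.92, 8.01 and 8.16 on those arrays and 9.54, 9.73 and 9.34 on mastitis arrays 3, 5 and 6. The same arrays 1, 2 and 4 had the 3 highest neutrophil marker levels of the group, at 9.21, 8.91 and 8.87, and the 3 lowest macrophage marker levels, at 6.72, 6.21 and 6.42. Their neutrophil levels stood beside 8.01, 7.83 and 8.34 on arrays 3, 5 and 6, and their macrophage levels beside 8.63, 8.57 and 7.07. They also had the 3 highest mammary secretory marker levels, at 8.99, 6.99 and 6.78 beside 5.84, 5.96 and 6.29, and the 3 lowest T cell marker levels, at 2.97, 2.65 and 3.84 beside values from 3.95 upwards. The part of these cells in the order was not tested. The share of all genes with this order was not counted, so it cannot be called particular to these factors.

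After the group means were removed, the 3 eEF1B subunits varied together over the 18 arrays, with a median pairwise correlation of 0.87. The median was 0.48 among 9 measured elongation genes, 0.39 among the 12 eIF3 genes, 0.20 among 8 eIF2 genes and 0.05 among the 11 eIF4 genes, beside 0.07 among all genes above background. With the ribosomal protein genes, the median correlation was 0.85 for the eEF1B subunits, 0.53 for eIF3, 0.32 for eIF2 and -0.02 for eIF4. EEF1G had the highest single median with the ribosomal protein genes, 0.93, and EIF1B the lowest, -0.52. These are descriptions over arrays that share their normalization and their cell mixture, and no test was made of them. The mean level of the eEF1B subunits had an SD of 0.84 in mastitis, 0.40 in healthy and 0.34 in endometritis samples. For the ribosomal protein genes the SDs were 0.67, 0.20 and 0.22. The correlations between these 2 sets therefore lean most on the mastitis arrays and in large part restate the order given above.

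**Figure D3:**
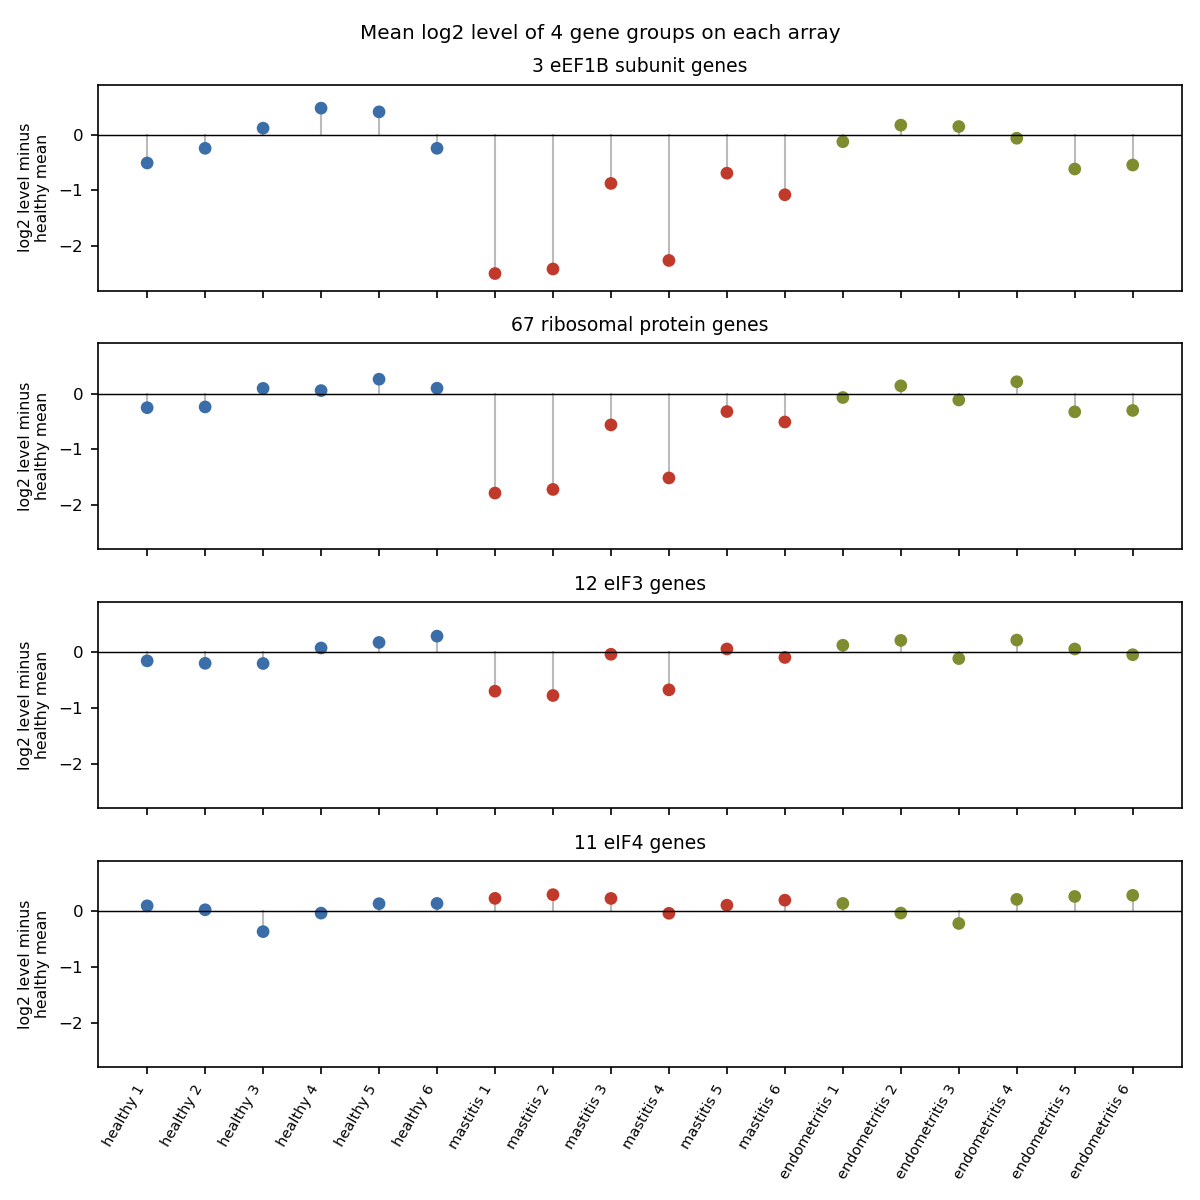
Mean log2 level of 4 gene groups on each of the 18 arrays, drawn as the difference from the mean of the 6 healthy arrays (vertical axis, the same in all panels). Mastitis arrays 1, 2 and 4 are the lowest for the eEF1B subunits, the ribosomal protein genes and the eIF3 genes, while the eIF4 genes show no such order.

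Among the genes of eIF3, the scaffold that holds the small subunit complex together, 4 of 12 were called lower and 1 higher, with a median difference of -0.37 that stayed below 0 under each scaling tried. The calls were less stable: 0 higher and 0 lower were left under hybridisation control scaling and with a GAPDH quality covariate. With array weights they were 1 higher and 0 lower, and 0 higher and 1 lower when the 12 arrays of the groups compared were fitted alone. Quantile normalization gave 0 higher and 6 lower. EIF3I ran from 6.86 through 7.42 to 7.87 in healthy, from 6.05 through 6.61 to 6.95 in mastitis and from 6.80 through 7.16 to 7.77 in endometritis samples. The mastitis and healthy groups overlapped only at their edges, and the fall was 0.82 ± 0.22 on the log2 scale (adjusted p = 0.0157). EIF3M ran from 8.65 through 8.84 to 9.21 in healthy and from 6.88 through 8.10 to 8.81 in mastitis samples, with mastitis array 5 inside the healthy range, and fell by 0.90 ± 0.26 (adjusted p = 0.0214). Without healthy array 5 or mastitis array 4 EIF3M was no longer called, at adjusted p up to 0.0538. EIF3B, a core subunit, read 5.41, 6.16, 7.36, 5.07, 6.58 and 6.66 on mastitis arrays 1 to 6 against a healthy range of 6.86 to 7.56. Array 3 alone reached the healthy range. EIF3B fell by 0.97 ± 0.31 (adjusted p = 0.0363), and its dimmer probe set differed by -0.26 without a call.

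EIF3D, the subunit that can itself bind the cap of some mRNAs, was the exception, higher in mastitis. It ran from 6.61 through 6.91 to 7.67 in healthy, from 6.89 through 7.79 to 8.01 in mastitis and from 6.91 through 7.41 to 7.89 in endometritis samples, so that all 3 groups overlapped. The rise of 0.67 ± 0.22 was close to the threshold (adjusted p = 0.0454) and so was the fall of EIF3H, 0.75 ± 0.25 (adjusted p = 0.0497). When each of the 18 arrays was left out in turn, EIF3D lost its call in 12 fits, EIF3H in 11 and EIF3B in 8, with adjusted p up to 0.101, 0.117 and 0.0881.

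The other 7 eIF3 genes were not called. EIF3A, the largest subunit, lay between 6.60 and 7.71 in healthy and between 6.75 and 7.62 in mastitis samples, the latter range within the former, with a difference of 0.13 ± 0.19 (adjusted p = 0.690). EIF3E ran from 8.18 through 8.50 to 9.03 in healthy and from 7.17 through 7.93 to 8.73 in mastitis samples, and its difference of -0.64 ± 0.28 was not called (adjusted p = 0.126). EIF3CL, EIF3G, EIF3J, EIF3K and EIF3L differed by -0.39 to 0.04.

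The genes around eIF2 split. Of 11, 4 were called lower and 1 higher, with a median of -0.25, which turned to 0.01 when arrays were scaled on their hybridisation controls. EIF2S3, the gamma subunit that binds GTP and the initiator tRNA, had the smallest adjusted p of the 51 genes. It read 8.48, 8.77, 8.51, 9.27, 8.76 and 8.89 on the healthy arrays, 7.68, 7.52, 7.96, 7.06, 8.07 and 7.67 on the mastitis arrays, and 8.92, 8.83, 8.59, 8.94, 8.94 and 8.55 on the endometritis arrays. All mastitis values lay below all others. The difference from healthy was -1.12 ± 0.16, a 2.17-fold fall (adjusted p = 0.000242), and its other probe set fell by 0.98 ± 0.17 (adjusted p = 0.000851). Under hybridisation control scaling EIF2S3 differed by -0.86 and was not called (adjusted p = 0.111). EIF2S1, the alpha subunit on which the stress kinases act, ran from 5.74 to 7.06 in healthy and from 5.62 to 6.79 in mastitis samples, with medians of 6.20 and 6.34. Its difference of -0.09 ± 0.30 was not called (adjusted p = 0.912), with a 95% interval from -0.74 to 0.55. The beta subunit was not analysed here.

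EIF2A, a separate protein that can bring initiator tRNA to the ribosome, ran from 4.09 through 4.23 to 4.85 in healthy and from 3.01 through 3.30 to 4.09 in mastitis samples. The groups overlapped narrowly, as mastitis array 2 was level with healthy arrays 1, 5 and 6 at 4.09. EIF2A fell by 0.93 ± 0.24 (adjusted p = 0.0116). EIF2D, which can do likewise, differed by -0.12 and was not called. Of 4 measured subunits of eIF2B, the factor that recharges eIF2 with GTP, 2 were called lower. EIF2B3 fell by 0.44 ± 0.12 (adjusted p = 0.0137), from a healthy range of 2.88 to 3.33 to a mastitis range of 2.43 to 3.03, both close to background and overlapping. EIF2B2 ran from 4.22 through 5.65 to 6.26 in healthy and from 3.95 through 4.50 to 5.09 in mastitis samples, overlapping, and fell by 1.02 ± 0.33 (adjusted p = 0.0410). With each array left out in turn, 11 of 18 fits did not call it, at adjusted p up to 0.100. EIF2B1 and EIF2B4 differed by -0.40 and -0.25 without a call.

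EIF2AK2 went the other way and by more than any other member. It encodes PKR, the kinase that phosphorylates eIF2 when it meets double-stranded RNA and whose gene is induced by interferon. It read 5.10, 4.64, 2.90, 2.77, 2.76 and 4.09 on the healthy arrays, 6.54, 7.07, 6.69, 8.02, 5.73 and 5.37 on the mastitis arrays, and 3.33, 2.68, 2.50, 2.70, 3.28 and 4.78 on the endometritis arrays. Every mastitis value lay above every other. The rise was 2.86 ± 0.54, 7.26-fold (adjusted p = 0.00154), and it was kept in each fit that left out an array, at 2.57 to 3.14. With a GAPDH quality covariate it was not called (2.07, adjusted p = 0.0523), nor when arrays were split by the number in their sample titles. Healthy arrays 3, 4 and 5 read close to background, which limits what the fold can show. The other kinases measured did not pass. EIF2AK3, or PERK, the kinase of the endoplasmic reticulum, ran from 2.61 to 2.78 in healthy and from 2.50 to 3.66 in mastitis samples, near background, and differed by 0.31 ± 0.17 (adjusted p = 0.253). EIF2AK1, the haem-regulated kinase, differed by -0.25 ± 0.16 (adjusted p = 0.343), and on 9 of the 18 arrays its value lay within 0.01 of 4.22.

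Among the eIF4 genes, which act on the mRNA cap and leader, 1 of 11 was called higher and 1 lower, with a median of 0.08 that turned to -0.19 under quantile normalization. EIF4G3, a form of the scaffold that bridges cap-binding protein, helicase and eIF3, read 5.85, 5.20, 3.44, 4.56, 4.79 and 5.70 on the healthy arrays and 7.16, 6.86, 6.47, 6.48, 6.53 and 6.47 on the mastitis arrays. No mastitis value reached down to a healthy one, nor to the endometritis range of 4.55 to 6.10. It rose 3.34-fold, by 1.74 ± 0.36 (adjusted p = 0.00289), and its dimmer probe set rose by 0.98 ± 0.25 (adjusted p = 0.0103). EIF4G1, the main form, ran from 4.81 through 5.58 to 5.84 in healthy and from 5.23 through 5.84 to 6.27 in mastitis samples, and its difference of 0.33 ± 0.20 was not called (adjusted p = 0.317).

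EIF4H, a helper of the helicase eIF4A, ran from 5.64 through 6.48 to 6.97 in healthy and from 5.24 through 5.80 to 5.98 in mastitis samples, overlapping through healthy array 3. It fell by 0.69 ± 0.18 (adjusted p = 0.0125). A dimmer probe set of EIF4H, close to background, differed by -0.04 ± 0.06 and was not called (adjusted p = 0.762). EIF4A1, the main helicase, ran from 7.55 through 8.10 to 9.05 in healthy and from 8.45 through 8.75 to 9.54 in mastitis samples. All 6 mastitis samples lay above the healthy mean and the groups overlapped, with a difference of 0.63 ± 0.28 (adjusted p = 0.148). EIF4A2, its close paralog, ran from 9.40 to 10.06 and from 9.23 to 10.51 in the same groups and differed by -0.09 ± 0.28 (adjusted p = 0.902). EIF4A3, the helicase of the exon junction complex, and EIF4B, a cofactor of eIF4A, differed by 0.08 and -0.40 without a call.

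None of the 4 genes for cap-binding proteins and their inhibitor was called by limma, although all 4 had an unadjusted p under 0.05. EIF4E, the cap-binding protein, ran from 6.46 through 7.23 to 7.96 in healthy, from 7.58 through 7.77 to 8.08 in mastitis and from 6.52 through 7.12 to 7.74 in endometritis samples. All mastitis samples lay above the healthy mean, overlapping with healthy array 2, and the difference was 0.62 ± 0.25 (adjusted p = 0.106). EIF4EBP1, which encodes the inhibitor 4E-BP1, ran from 4.42 through 6.01 to 6.77 in healthy and from 4.05 through 4.57 to 5.93 in mastitis samples, and differed by -1.17 ± 0.46 (adjusted p = 0.0890). EIF4E3 differed by 1.30 ± 0.54 (adjusted p = 0.113) and EIF4E2, a cap-binding protein linked to repression, by -0.46 ± 0.16 (adjusted p = 0.0519), while a dimmer probe set of EIF4E2 passed at -0.51 (adjusted p = 0.0465).

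The array also carries controls along EIF4E. The 5′ control averaged 3.51 ± 0.68 (SD, n = 6) in healthy and 4.77 ± 0.59 in mastitis samples (exact permutation p = 0.0130, adjusted 0.0487 over 30 tests). The 3′ control averaged 7.67 ± 0.34 and 7.93 ± 0.28 (exact permutation p = 0.160). Their difference, 3′ minus 5′, was 4.16 ± 0.47 in healthy and 3.16 ± 0.45 in mastitis samples (exact permutation p = 0.00433, adjusted 0.0216). For EEF1A1 the 3′ control differed by -2.64 and the 5′ control by -0.28 between mastitis and healthy samples. The mean 3′ signal relative to the 5′ signal was thus lower in mastitis for EIF4E, EEF1A1 and GAPDH alike. In EIF4E the 5′ control was higher, and in EEF1A1 the 3′ control was lower. The cause was not tested.

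Of the 6 genes of eIF1, eIF5 and eIF6, 2 were called higher and 1 lower, with a median of 0.15 that turned to -0.02 under quantile normalization. EIF1, which guards the choice of start codon, ran from 10.51 through 10.82 to 11.00 in healthy and from 11.03 through 11.48 to 11.94 in mastitis samples, with no overlap, and rose by 0.63 ± 0.16 (adjusted p = 0.0130). EIF6, which keeps the large ribosomal subunit from joining too early, ran from 5.18 through 5.79 to 6.46 in healthy and from 5.93 through 6.89 to 7.44 in mastitis samples. It overlapped through healthy array 6 and rose by 0.98 ± 0.25 (adjusted p = 0.0102). EIF1AX, which encodes eIF1A and works with eIF1 in scanning, ran from 9.16 through 9.29 to 9.59 in healthy and from 7.93 through 8.64 to 9.03 in mastitis samples, with no overlap. It fell by 0.73 ± 0.21 (adjusted p = 0.0207), and without healthy array 5 it missed the threshold (adjusted p = 0.0514). EIF5, which makes eIF2 hydrolyse its GTP, differed by -0.38 ± 0.18 (adjusted p = 0.173), EIF1B by 0.41 and EIF1AD by -0.10, none called. A dimmer probe set of EIF5 went the other way, by 0.24 ± 0.21, also without a call (adjusted p = 0.483). The eIF5A gene was not analysed here.

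**Figure D4:**
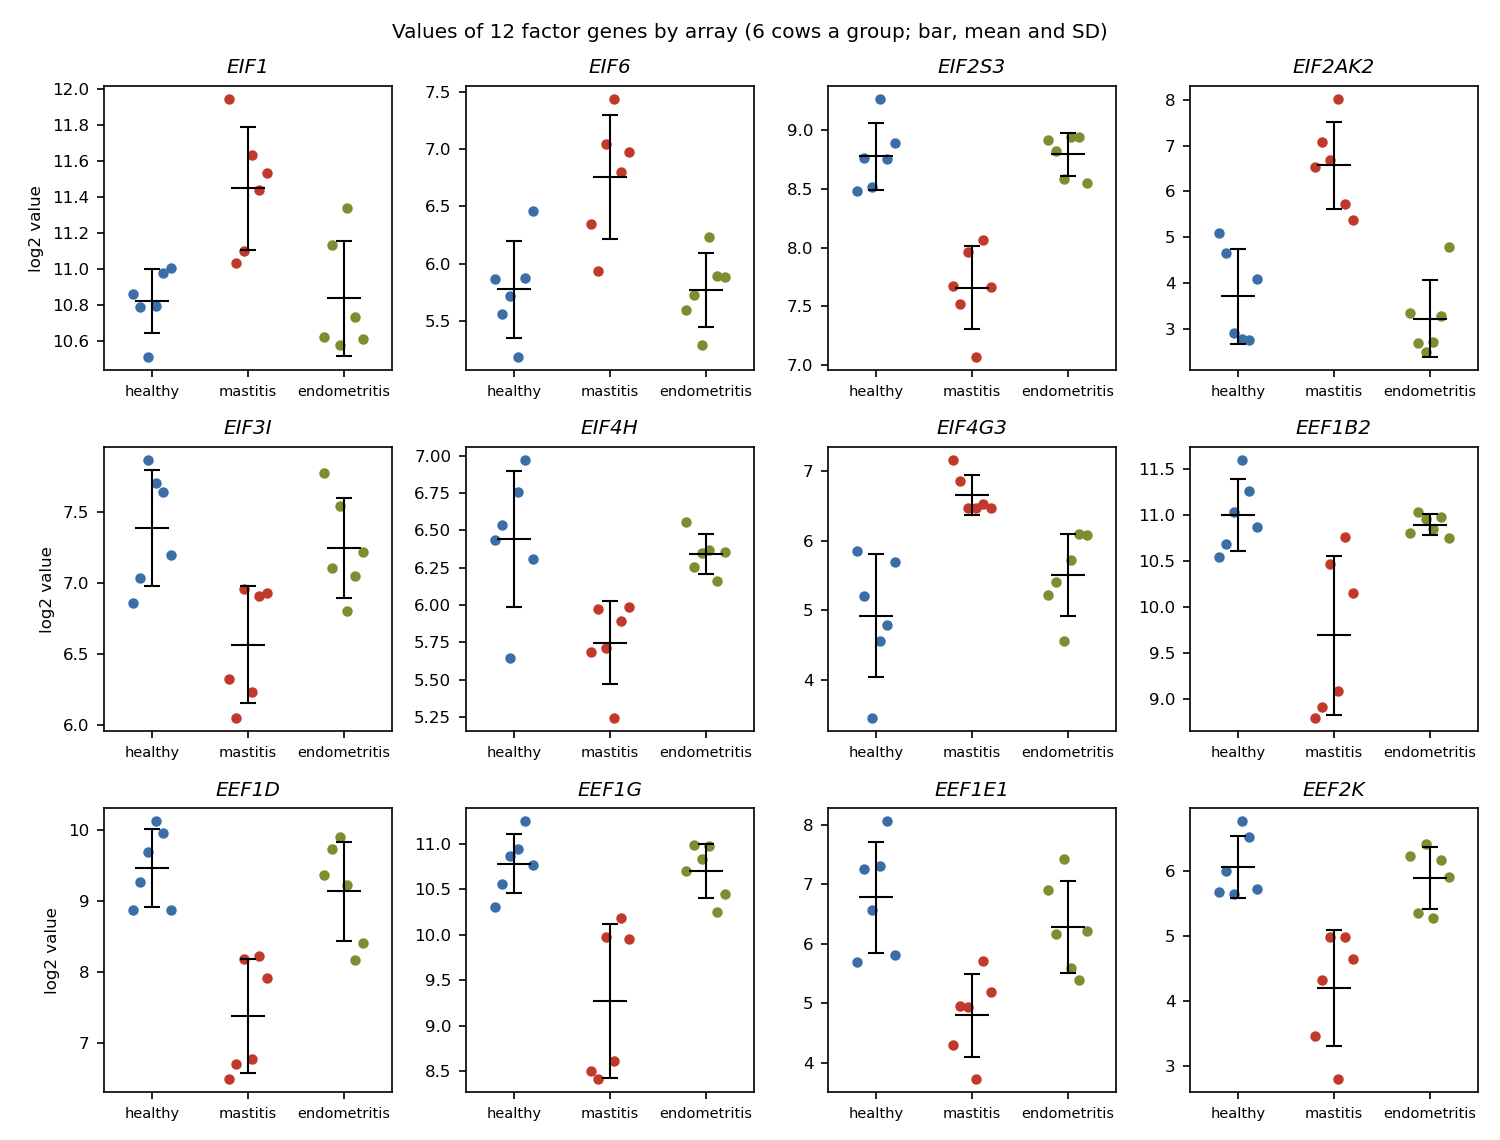
Log2 values by array of 12 factor genes called in mastitis against healthy, 6 cows in each group, with points for arrays and bars for mean and SD, each panel on its own axis. EIF2AK2, EIF4G3 and EIF1 are higher in every mastitis sample than in any healthy one, EIF2S3, EEF1D, EEF1G and EEF2K are lower in every mastitis sample, and the endometritis samples lie around the healthy ones.

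Other genes of the same pathway, in lists chosen with earlier results of these data known, are given by their counts in the same fit. Beside them, 11.3% of all 9155 genes were called higher in mastitis than in healthy milk and 15.8% lower. Of the genes above background on all arrays, the shares were 17.1% and 23.1%. Of 67 cytosolic ribosomal protein genes, 56 were called lower in mastitis than in healthy milk and 1 higher, with a median of -1.14, or -0.88 and 14 called lower under hybridisation control scaling. The smallest p-values were those of RPS27L, RPL36A and RPL22, which fell by 2.71, 1.67 and 1.58 on the log2 scale. Of 10 partners of scanning and of the poly-A tail, 6 were called lower and 0 higher, with a median of -0.78 (2 lower and -0.52 under hybridisation control scaling). They included MCTS1, which works with DENR in re-initiation, at -1.74 ± 0.31, and the poly-A binding protein partners PAIP1, at -1.32 ± 0.24, and PAIP2, at -1.31 ± 0.30. Of 10 termination, recycling and rescue genes, 2 were called higher and 2 lower. ETF1, which encodes the release factor eRF1, rose by 1.33 ± 0.21, while HBS1L, of ribosome rescue, fell by 1.83 ± 0.38 and GTPBP2, also of rescue, rose by 0.93 ± 0.27. The other gene called lower, named after its value was seen, was GSPT1, which encodes the release factor eRF3, at -0.68 ± 0.23 (adjusted p = 0.0466).

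Genes that feed signals to the factors were called in both directions, as were genes at large. Of 17 genes of the mTOR pathway and of kinases that act on initiation factors, 5 were called higher and 4 lower. The shares among all genes above background were 17.1% and 23.1%. DDIT4, an inhibitor of mTOR complex signalling, rose by 4.46 ± 0.51, RHEB, the activator of that complex, fell by 1.82 ± 0.24, and MKNK1, a kinase of eIF4E, rose by 3.60 ± 0.52. Of 13 genes that follow eIF2 phosphorylation or reverse it, 6 were called higher and 2 lower, with a median of 0.19. CEBPB rose by 4.05 ± 0.51, DDIT3, which encodes the stress factor CHOP, by 2.91 ± 0.40, and PPP1R15A, which encodes the phosphatase subunit GADD34, by 1.74 ± 0.32. CEBPB is also a gene of myeloid cells. The genes called lower, named after their values were seen, were ATF5, a transcription factor of the stress response, at -1.88 ± 0.55 (adjusted p = 0.0228), and PPP1CB, a catalytic subunit of protein phosphatase 1, at -0.82 ± 0.27 (adjusted p = 0.0410). Of 5 genes in a list of interferon-induced inhibitors, 2 were called higher, EIF2AK2 itself and IFIT2, which rose by 2.40 ± 0.52, while IFIT5 differed by 1.77 ± 0.61 (adjusted p = 0.0543).

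Of 18 cytosolic tRNA synthetase genes, 2 were called higher and 1 lower, with a median of -0.24 that turned to 0.02 under hybridisation control scaling. SARS1 rose by 3.00 ± 0.31 and TARS1 by 2.60 ± 0.35, and HARS1 fell by 0.99 ± 0.32. Of 9 genes for the hypusine of eIF5A and the diphthamide of eEF2, 1 was called in each direction, AMD1 at -1.37 ± 0.29 and DPH3 at 0.70 ± 0.15, and DHPS, at -0.36 ± 0.14, was not called. Of 9 mitochondrial translation factors, 3 were called lower and 1 higher, with a median of -0.62 (0 lower and -0.36 under hybridisation control scaling). MTRF1 fell by 0.62 ± 0.13, MRRF by 0.85 ± 0.20, and TSFM rose by 1.53 ± 0.49.

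Between endometritis and healthy milk, 0 of the 51 genes were called higher and 0 lower, beside 0% of all 9155 genes in each direction. By unadjusted p under 0.05, 3 members passed, beside 5.44% of all genes. They were EIF3A, which lay between 7.41 and 8.03 with a median of 7.90 in endometritis and between 6.60 and 7.71 in healthy samples (0.67 ± 0.19, adjusted p = 0.925), EIF3CL (0.38 ± 0.15) and EIF4G1 (0.50 ± 0.20). For each of these 3, all 6 endometritis samples lay above the healthy mean. The class medians were -0.13 for eIF1, eIF5 and eIF6, 0.01 for eIF2, -0.01 for eIF3, 0.15 for eIF4 and -0.03 for elongation. The 95% intervals of the difference ran from -0.33 to 0.36 for EIF2S3, from -0.77 to 0.56 for EEF1B2, from -1.17 to 0.51 for EEF1D and from -1.64 to 0.64 for EIF2AK2, so that a 2-fold fall of EIF2S3 or EEF1B2 lay outside them.

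Between mastitis and endometritis milk, a comparison that shares its mastitis arrays with the one above, 5 members were called higher and 10 lower, beside 9.14% and 10.9% of all genes. Among the 4969 genes above background on all arrays, those shares were 13.6% and 16.9%. The split became 4 higher and 19 lower under quantile normalization, beside 838 higher and 1104 lower of all 9155 genes. Under hybridisation control scaling it became 1 higher and 3 lower, beside 584 and 446 of all genes. By class, elongation had 5 of 11 lower with a median of -0.65, eIF2 had 3 lower and 1 higher of 11 with a median of -0.35, eIF3 had 1 lower of 12 with a median of -0.48, eIF4 had 1 in each direction of 11 with a median of -0.17, and eIF1, eIF5 and eIF6 had 3 higher of 6 with a median of 0.40. None of these medians changed sign under the scalings tried. Of the 12 eIF3 genes, 11 differed downwards.

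In that comparison EIF2AK2 rose by 3.36 ± 0.54 (adjusted p = 0.000755) and EIF2S3 fell by 1.13 ± 0.16 (adjusted p = 0.000300). EEF2K, EEF1G, EEF1D and EEF1B2 fell as well, with differences of -1.70 ± 0.37, -1.42 ± 0.31, -1.76 ± 0.39 and -1.21 ± 0.31 and adjusted p of 0.00556, 0.00601, 0.00685 and 0.0163. EIF2A fell by 1.06 ± 0.24, from an endometritis range of 4.07 to 5.09 to a mastitis range of 3.01 to 4.09 (adjusted p = 0.00690). EIF6 rose by 0.98 ± 0.25 and EIF1 by 0.61 ± 0.16 (adjusted p = 0.0130 and 0.0192), and in each gene the groups overlapped. EIF1B, a close paralog of EIF1, ran from 6.48 to 7.39 in mastitis and from 5.89 to 6.74 in endometritis samples and rose by 0.53 ± 0.17 (adjusted p = 0.0447).

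The remaining calls of that comparison lay near the threshold: EEF1E1 at -1.49 ± 0.46, EIF4H at -0.59 ± 0.18, EIF4G3 at 1.15 ± 0.36, EIF2B3 at -0.36 ± 0.12 and EIF3B at -0.96 ± 0.31, with adjusted p of 0.0395, 0.0371, 0.0421, 0.0487 and 0.0490. With EIF1B they each went uncalled in 8 to 15 of 18 leave-one-out fits, with adjusted p up to 0.116. EIF2S1 differed by -0.09 ± 0.30, EIF4E by 0.71 ± 0.25 (adjusted p = 0.0783), EEF2 by -0.65 ± 0.27 (adjusted p = 0.133) and EEF1A1 by -0.38 ± 0.19 (adjusted p = 0.245), none called.

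The calls between mastitis and healthy thinned with a GAPDH covariate and when arrays were split by title number. Not every alternative thinned them. Quantile normalization gave 4 members higher and 20 lower, beside 972 higher and 1606 lower of all 9155 genes. With the GAPDH 3′ minus 5′ difference as a covariate, 0 members were called higher and 3 lower, while all 20 called members kept their direction and 16 members passed at an unadjusted p under 0.05, 4 of them higher. Of all 9155 genes, 376 were called higher and 429 lower in that fit. EIF2S3 (-1.01, adjusted p = 0.00898) and EEF1D (-1.36, adjusted p = 0.0499) were still called. EIF5 was added at its brightest probe set (-0.76, adjusted p = 0.0130). EIF2AK2 then differed by 2.07 (adjusted p = 0.0523), EIF4G3 by 1.05 (0.0869), EEF1G by -1.21 (0.0736) and EEF2K by -1.28 (0.0676). On the 3 healthy and 4 mastitis arrays with sample titles numbered up to 120, 0 members were called by limma, 19 passed at an unadjusted p under 0.05, and all 20 kept their direction, while 36 of all 9155 genes were called higher and 28 lower. On the 3 healthy and 2 mastitis arrays numbered above 120, 0 were called higher and 8 lower, again with all 20 in the same direction. Of all 9155 genes, 460 were called higher and 691 lower there. These fits reuse the arrays on which the 20 were called, so the shared direction is largely built in and adds no support.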

How the data were processed

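RNA of milk cells from 18 cows was read on Affymetrix bovine arrays. Per the labels' protocols, samples needed an integrity number above 6, labelling with a 3′ IVT kit started from 100 ng, and each array took 10 µg. RMA, GCRMA and limma appear in the submitters' processing notes without version or order. The authors deposited normalised values, taken here to be on a log2 scale. Their log base, and whether RMA or GCRMA gave them, is not stated in those notes.

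The members and lists were chosen with earlier results of these data known. Of 24128 probe sets, 112 controls were left out, among them 3 each for EEF1A1 and EIF4E, and 24016 were tested. The annotation gave 1 symbol for 13292, several for 86, which were not named, and none for 10638. All 51 member symbols stood unchanged in the RefSeq gene table of assembly ARS-UCD2.0, used for names only. With limma 3.58.1 in R 4.3.3 (lmFit, eBayes, two-sided), a single 3-group model used all 18 arrays (15 residual degrees of freedom, prior 0.561), without a filter on dim probe sets, and p-values were adjusted by Benjamini-Hochberg over all tested probe sets. The script was tested on simulated data. Array measures were compared by exact permutation over all 924 arrangements. No columns (0) belonged to no sample. Replicate numbers follow accession order and pair nothing.

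Genes given in full were, per role and comparison, the 2 called members with the smallest adjusted p in each direction and a set of core factors. Other called members are given by value, and EEF1E1, EIF3H and the dimmer probe sets were added after their values were seen. Alternatives covered the arrays fitted, array weights, dim probe sets, scaling, a GAPDH covariate, title numbers, the variance prior, probe set choice, the genes adjusted over, and leaving out each array.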

Additional observations from a re-analysis of the deposited data

Results flagged for a closer look

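In 7 of 148 gene and group sets of 6 arrays, a single array stood far from the rest of its group by Dixon's ratio at the 95% level, a rule that chance meets in about 1 of 20 groups. EIF2AK2 read 4.78 on endometritis array 6, the next being 3.33, on the array with the highest neutrophil marker level of its group (6.35). EIF2AK3 read 3.36 on endometritis array 4, the next being 2.79. EEFSEC read 3.79 on endometritis array 5, the next being 3.05, and 3.24 on mastitis array 3, the next being 3.01. EIF4E2 read 4.45 on healthy array 5, the next being 3.83. EIF2AK1 read 3.30 on mastitis array 2, the next above being 3.98. EEF2KMT read 2.59 on mastitis array 2, the next being 2.44, a gene otherwise at background there. Of these genes only EIF2AK2 was called in a comparison at its brightest probe set.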

How the results depend on the processing

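No member that was called reversed its direction under any alternative run, but all runs reuse arrays on which the members were called. Between mastitis and healthy, the 5 higher and 15 lower calls became 3 and 4 when arrays were scaled on their hybridisation controls and 0 and 3 with the GAPDH covariate. They became 0 and 8 on arrays titled above 120, and 0 and 0 on arrays titled up to 120. In the other direction, they became 4 and 20 under quantile normalization, 5 and 18 under median centring and 4 and 16 with the title number as a block. Leaving out each array gave 4 to 6 higher and 10 to 17 lower, the lowest without healthy array 5, and 14 of the 20 calls were kept in all 18 such fits. Between mastitis and endometritis, the 5 higher calls became 3 with the 12 arrays of the groups compared, with array weights and with the GAPDH covariate, and 1 with hybridisation control scaling or on arrays titled above 120. The 10 lower calls became 3 with hybridisation control scaling, 6 with the GAPDH covariate, 19 with quantile normalization and 17 with the title number as a block. Leaving out each array gave 3 to 5 higher, 3 in 10 of the fits, and 6 to 15 lower, the lowest without mastitis array 1, mastitis array 4 or endometritis array 1 and the highest without mastitis array 5. There, 9 of the 15 calls were kept in all 18 fits. The cause of these changes was not tested. Between endometritis and healthy, 0 members were called under each alternative run, a comparison that could not be fitted on arrays titled up to 120. No paired analysis was possible because the labels give no replicate numbers shared between groups. Members near background, such as EIF2AK3, EIF2B3 and EEFSEC, can show only part of a fall. The same holds for EIF2AK2 between endometritis and healthy milk.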
